A study of Mus musculus with 17 samples.

Results

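Foxp3- CD4 T cells cultured with dendritic cells (DC) from the lamina propria (LP-DC), the connective tissue layer of the gut lining, were compared with Foxp3- cells cultured with spleen DC (Sp-DC), with no retinoic acid (RA) added to either culture. The comparison holds 4 of the 17 Affymetrix arrays of the series, 2 with LP-DC and 2 with Sp-DC, chosen by their labels. The T cells were CD4+ Foxp3- cells from the spleens of C57BL/6 mice carrying a Foxp3/GFP reporter, aged 6 to 10 weeks, and each array pooled material of 3 male mice. All cultures of this experiment received 10 T cells per DC, 1 µg/ml of an antibody to CD3, 0.6 ng/ml of transforming growth factor beta (TGF-beta), and 5 ng/ml of IL-2 on days 2 and 4. After 5 days the cells were sorted by GFP, and the GFP- fraction, the cells without reporter signal, is described here. The GFP+ (Foxp3+) fraction of cultures with the same labels (2 arrays with each DC) and the Foxp3- cells of a Sp-DC culture with 100 nM RA (1 array) serve as comparisons. RNA was amplified in 2 rounds before labelling.

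DC of the gut wall and DC of the spleen present antigen alike but differ in what they give a T cell. Many LP-DC can make RA from vitamin A, and RA together with TGF-beta favours Foxp3 and induces the gut-homing receptors CCR9 and alpha4beta7 integrin. The Foxp3- fraction of such a culture holds activated effector cells, whose growth draws on glycolysis and on the mevalonate pathway, the route from acetyl-CoA to cholesterol.

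Levels are log2 robust multi-array average (RMA) intensities, in which a difference of 1 is a 2-fold change. Array medians ran from 5.89 to 5.94 over the 11 co-culture arrays, and 11846 genes were above the median on at least 2 of them and were tested. Arrays with the same number deviated together in all 10 pairs of groups (correlation 0.45 to 0.75 across genes). The definition of the comparison, not these correlations, set that LP-DC and Sp-DC arrays were compared as pairs by number. A limma fit with these pairs was used. "Rose" and "fell" are used for a Benjamini-Hochberg adjusted p under 0.05 in that paired fit, and differences are LP-DC minus Sp-DC ± standard error. Nothing says that the 2 pairs came from separate experiments, so p-values measure the spread between these arrays. In sorted bulk RNA, fewer cells of a type and less RNA per cell cannot be told apart.

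A pair of arrays stood apart. Hspa1a and Hspa1b, which encode the stress-induced chaperone HSP70, had levels of 10.44 and 11.06 on the second Sp-DC array of Foxp3- cells and 9.36 and 10.36 on the second Sp-DC array of Foxp3+ cells. On the other 9 co-culture arrays Hspa1a lay between 3.69 and 4.65 and Hspa1b between 5.44 and 6.85. No other heat shock gene examined was set apart by as much. Dnajb1 lay between 11.21 and 11.69 and Hspb1 between 7.46 and 7.97 over the other 9 arrays, ranges that also held both arrays. Some others left that range by less. Hspa8 was at 12.1603 (Foxp3-) and 12.0882 (Foxp3+) on the second Sp-DC arrays, against at most 12.088 on the other 9. Hspe1 was above the others only in Foxp3- cells (11.1661 against at most 10.9958). Hsph1 (9.19) and Hspd1 (11.51) were below them only in Foxp3+ cells, the lowest others being 9.26 and 11.74. Of 18194 genes, 8 were higher on both of these arrays than on any other co-culture array by over 1 log2 unit, and they include Mt1, Mt2 and Emilin2, which are described below. Cd4 lay between 9.23 and 9.63 on the 4 arrays, and all 14 tested T cell identity genes were above the array medians on each of them. None of the 14 passed, which does not check the identity of cells that both groups share. Foxp3 itself lay between 3.88 and 4.53 on all 11 co-culture arrays, below the array medians in both sorted fractions, so its probe set does not check the sort.

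Of the 11846 genes, 102 changed with the source of the DC (0.861%), 25 rising with LP-DC (0.211%) and 77 falling (0.65%). The falls were also larger, with 45 falls and 10 rises of at least 2-fold, and the median of all genes was -0.00. With 0.861% of all genes called, 0 calls in any of the gene lists below say little about that list. The LP-DC and Sp-DC arrays did not overlap for 96 of the 102 genes, as for 32.2% of all genes tested, and both pairs moved the same way for all 102, as for 59.2% of all genes. Under quantile normalization 90 rises and 167 falls were called. The number of calls depends on the pairing and on single arrays. Without the pairing, limma called 0 genes (794 had an unadjusted p under 0.05, against 1986 with it), and without the second Sp-DC array the paired fit also called 0 (1116 with an unadjusted p under 0.05). It called 3 without the second LP-DC array, 1 without the first Sp-DC array and 85 without the first LP-DC array, 45 of them among the 102. The sign of all 102 genes was the same in these fits, which the agreement of both pairs largely fixes. The difference was larger in the second pair than in the first for 77 of the 102 genes (75.5%), and for 54.3% of all genes.

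**Figure D1:**
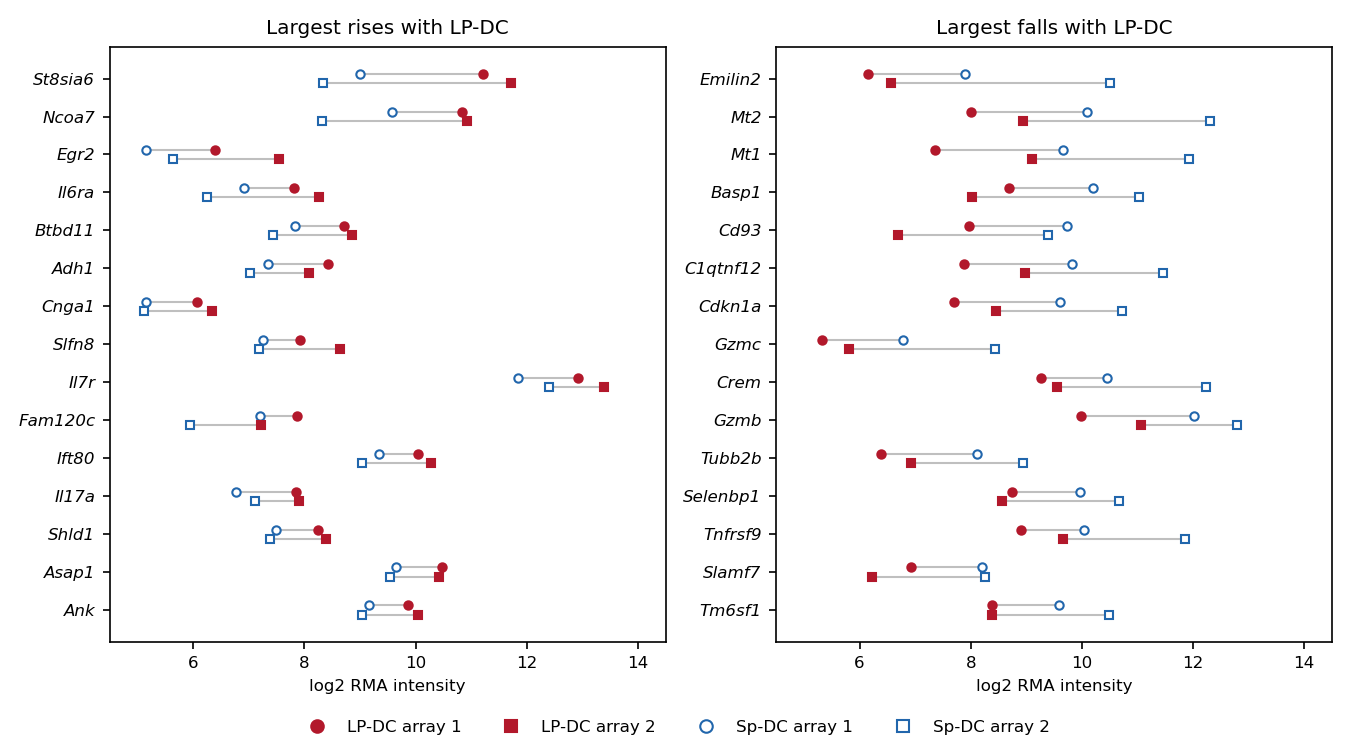
Log2 RMA intensity in the Foxp3- cells of the 15 largest rises (left) and 15 largest falls (right) among called genes chosen to have groups apart, without RIKEN, Gm and clone names, with LP-DC arrays as filled red symbols and Sp-DC arrays as open blue symbols. Circles are the arrays numbered 1 and squares those numbered 2, and grey lines join a pair. The choice of genes sets the separation of the groups, and for most falls the longer line belongs to the second pair.

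The promoters of both metallothionein genes and of Msmo1 and Mvd, 2 of the 4 members of the sterol list that fell, are shown first, because both groups have textbook regulatory motifs. Metal-responsive transcription factor 1 binds the metal response element, and sterol regulatory element-binding proteins act with NF-Y, which binds CCAAT boxes. Each line gives the 250 bases before the transcription start from RefSeq (build GRCm38.p6), read 5′ to 3′ on the gene's strand. Capitals in Mt1 (chr8:94178839-94179088, + strand) and Mt2 (chr8:94172368-94172617, + strand) mark TGCACNC or TGCGCNC, the metal response element core, on either strand. Capitals in Msmo1 (chr8:64733579-64733828, - strand) and Mvd (chr8:122443423-122443672, - strand) mark CCAAT on either strand.
Mt1: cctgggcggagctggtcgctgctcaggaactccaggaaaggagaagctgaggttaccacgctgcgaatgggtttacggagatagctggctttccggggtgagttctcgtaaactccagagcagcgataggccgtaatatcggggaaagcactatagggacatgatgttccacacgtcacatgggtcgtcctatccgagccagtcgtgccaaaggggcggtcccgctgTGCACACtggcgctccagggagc
Mt2: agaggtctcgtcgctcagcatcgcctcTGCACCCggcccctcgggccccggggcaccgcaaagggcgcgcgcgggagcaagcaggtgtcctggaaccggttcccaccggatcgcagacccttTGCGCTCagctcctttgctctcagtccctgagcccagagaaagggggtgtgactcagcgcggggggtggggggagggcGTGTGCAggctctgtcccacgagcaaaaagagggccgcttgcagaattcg
Msmo1: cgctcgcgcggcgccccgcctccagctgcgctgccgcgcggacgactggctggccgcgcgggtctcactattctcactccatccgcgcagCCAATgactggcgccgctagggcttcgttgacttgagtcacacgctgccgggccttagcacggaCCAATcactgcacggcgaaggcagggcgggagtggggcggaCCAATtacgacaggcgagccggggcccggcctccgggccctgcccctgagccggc
Mvd: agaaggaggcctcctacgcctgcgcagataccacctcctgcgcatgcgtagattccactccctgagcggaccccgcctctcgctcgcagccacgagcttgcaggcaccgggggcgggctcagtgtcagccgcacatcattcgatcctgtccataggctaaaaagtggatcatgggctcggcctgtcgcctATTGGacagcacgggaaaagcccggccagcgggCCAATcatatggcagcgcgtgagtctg

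The metal response element core was found 1 time in the Mt1 window and 3 times in the Mt2 window. Of all 32851 RefSeq promoter windows of this length, 21.4% hold at least 1 copy and 1.26% at least 3. CCAAT was found 3 times in Msmo1 and 2 times in Mvd, against 33.8% of windows with at least 1 copy, 10.1% with at least 2 and 2.79% with at least 3. The sterol response element TCACNCCAC, held by 1.05% of windows on either strand, was in none of these 4 windows, which says only that these letters are not in these bases. Its shorter form TCACNCCA, held by 3.67% of windows, was found 1 time, in Msmo1. A match of letters is a description and not a bound site.

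Both metallothioneins, small proteins that bind zinc and copper, fell. Mt1 had levels of 7.36 and 9.10 with LP-DC against 9.65 and 11.93 with Sp-DC, a difference of -2.56 ± 0.33 (5.91-fold lower, adjusted p = 0.0258). Mt2 had levels of 8.0 and 8.94 against 10.09 and 12.30, a difference of -2.73 ± 0.41 (6.62-fold lower, adjusted p = 0.0348). For both genes the second array of each group was the higher, and the groups did not overlap, as for 96 of the 102 called genes. The second Sp-DC array, on which Hspa1a and Hspa1b stood apart, carried the highest level of both among the Foxp3- arrays, and whether the 2 observations belong together was not tested. Both pairs differed in the same direction, as they did for all 102 called genes. The RA culture's single array, numbered 2, was at 10.26 for Mt1 and 10.50 for Mt2. It lay above the first Sp-DC array and below the second, which has the same number. Of 8 tested genes on the list of metallothioneins and zinc handling these 2 fell and the other 6 did not pass, among them Mtf1, the metal-sensing transcription factor, at 0.06 ± 0.12, and the zinc exporter Slc30a1 at 0.41 ± 0.14. The list's median was -0.29.

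**Figure D2:**
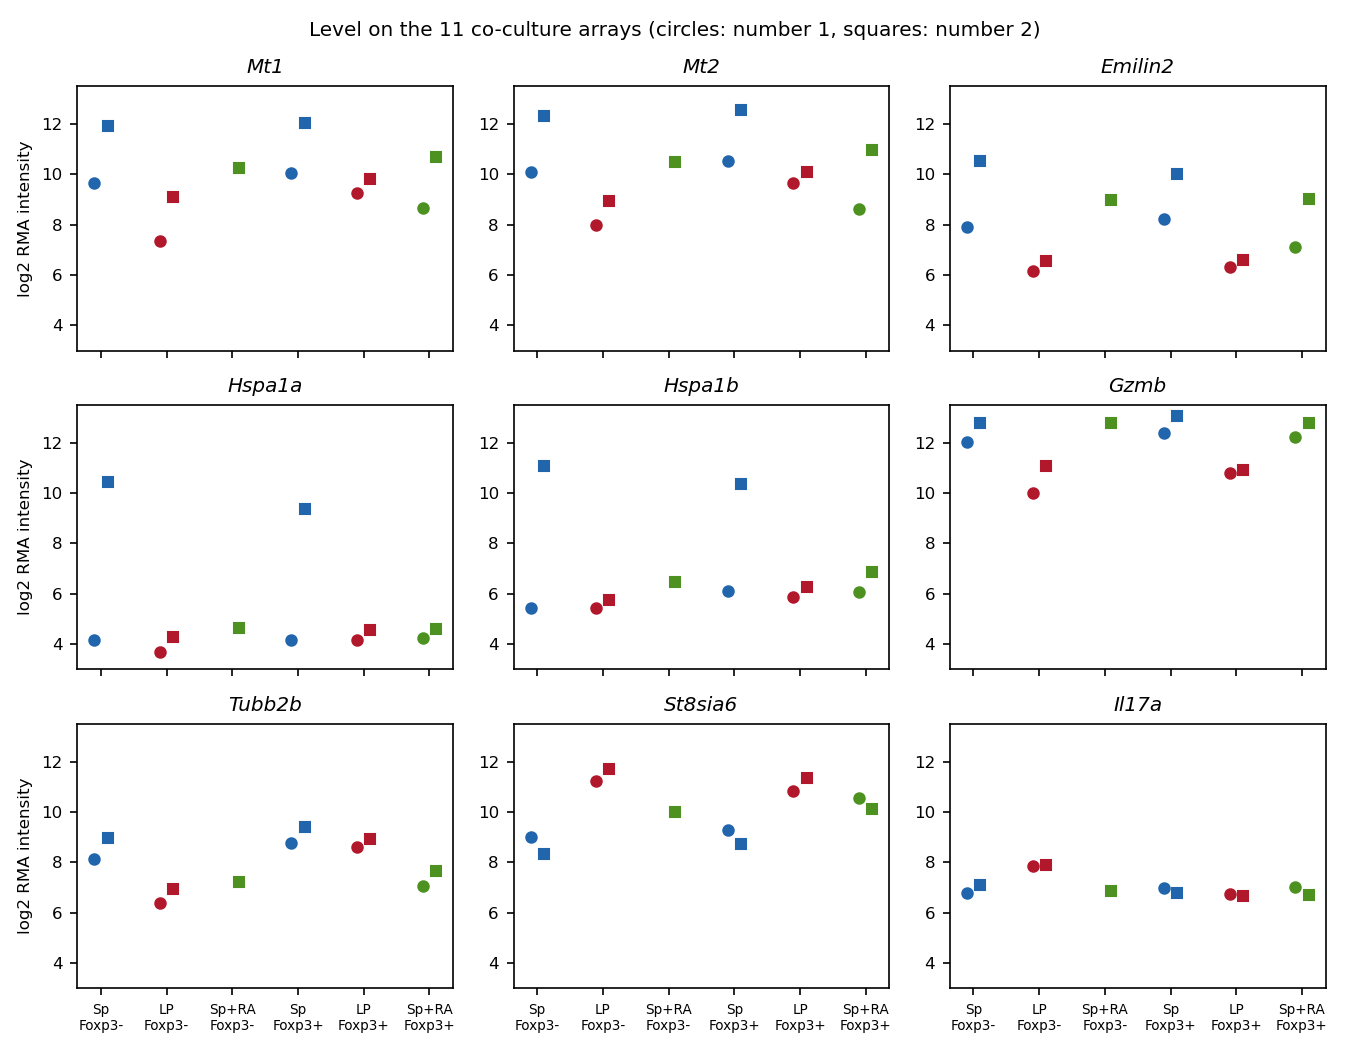
Log2 RMA intensity of 9 genes on the 11 co-culture arrays, by DC (blue Sp-DC, red LP-DC, green Sp-DC plus RA) and sorted fraction, with circles for arrays numbered 1 and squares for arrays numbered 2. Hspa1a and Hspa1b are above 9 only on the Sp-DC arrays numbered 2, Mt1, Mt2 and Emilin2 are also highest there, and Tubb2b and Il17a differ by DC in the Foxp3- cells and by less in the Foxp3+ cells.

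The list of sterol and fatty acid synthesis holds enzymes and their regulators. Of its 24 tested members, 24 had a difference below 0 (51% of all genes). In both pairs 21 were below 0 (87.5%, against 32.2% of all genes). The list median was -0.58 against -0.00 for all genes. Of the 24, 4 fell and 20 did not pass. Mvd, which makes isopentenyl diphosphate, had levels of 6.88 and 7.43 with LP-DC against 8.27 and 8.58 with Sp-DC, a difference of -1.28 ± 0.16 (2.42-fold lower, adjusted p = 0.0258). Fdps, farnesyl diphosphate synthase, had levels of 7.59 and 8.44 against 9.07 and 9.54, a difference of -1.29 ± 0.22 (adjusted p = 0.0412). Fdft1, squalene synthase, the first enzyme committed to sterols, had levels of 8.20 and 8.90 against 9.51 and 9.81, a difference of -1.11 ± 0.17 (adjusted p = 0.0348). All 3 have LP-DC arrays below both Sp-DC arrays, the groups being apart for 96 of the 102 called genes. Another probe set of Fdft1, at a level near 5, moved by 0.01.

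Further down the pathway, Msmo1, the C4-methylsterol oxidase, had levels of 8.02 and 8.77 with LP-DC against 9.69 and 9.80 with Sp-DC, a difference of -1.35 ± 0.23 (2.55-fold lower, adjusted p = 0.0412). Its groups were apart by about as much as those of Mvd. Pmvk, phosphomevalonate kinase, the enzyme just before Mvd, was not on the list and is named after its values were seen. It had levels of 8.77 and 9.04 against 10.38 and 10.51, a difference of -1.54 ± 0.21 (2.91-fold lower, adjusted p = 0.0258). Unlike the metallothioneins, the 4 list members that fell differed more in the first pair than in the second. Hmgcs1, the HMG-CoA synthase, differed by -0.60 ± 0.16 (adjusted p = 0.0961) and Sqle, squalene epoxidase, by -0.80 ± 0.17 (adjusted p = 0.0581), neither passing. The regulators Srebf2 (-0.53 ± 0.23) and Insig1 (-0.57 ± 0.30) did not pass, and the fatty acid synthesis enzymes Fasn (-0.17 ± 0.18) and Acaca (-0.21 ± 0.18) did not pass either. Without the second Sp-DC arrays of both fractions the list's median was -0.76, with 24 of 24 still below 0 and 0 called.

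Glycolysis and hypoxia genes were likewise below 0 with LP-DC for 25 of 25 tested members (51% of all genes). In both pairs 24 were below 0 (96%, against 32.2% of all genes). The list's median was -0.47, but only 1 gene passed. That gene was Aldoc, aldolase C, with levels of 10.58 and 10.34 with LP-DC against 11.54 and 11.56 with Sp-DC, a difference of -1.09 ± 0.18 (2.13-fold lower, adjusted p = 0.0403). The LP-DC arrays lay about 1 unit under both Sp-DC arrays. Larger differences that did not pass were those of the glucose transporter Slc2a3, with levels of 12.08 and 11.35 against 12.69 and 13.27 (-1.27 ± 0.31, adjusted p = 0.081), of Ndrg1 (-1.13 ± 0.26) and of the oxygen sensor Egln3 (-1.10 ± 0.28). Each of these differed more in the second pair than in the first. Smaller differences were those of Pgk1 at -0.16 ± 0.12, Ldha at -0.13 ± 0.12 and Gapdh at -0.31 ± 0.12, and Hif1a, the oxygen-regulated transcription factor, at -0.03 ± 0.16. Bsg, basigin, the chaperone of lactate transporters, was called outside the list (-0.97 ± 0.14, adjusted p = 0.0332) and is named after its values were seen.

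**Figure D3:**
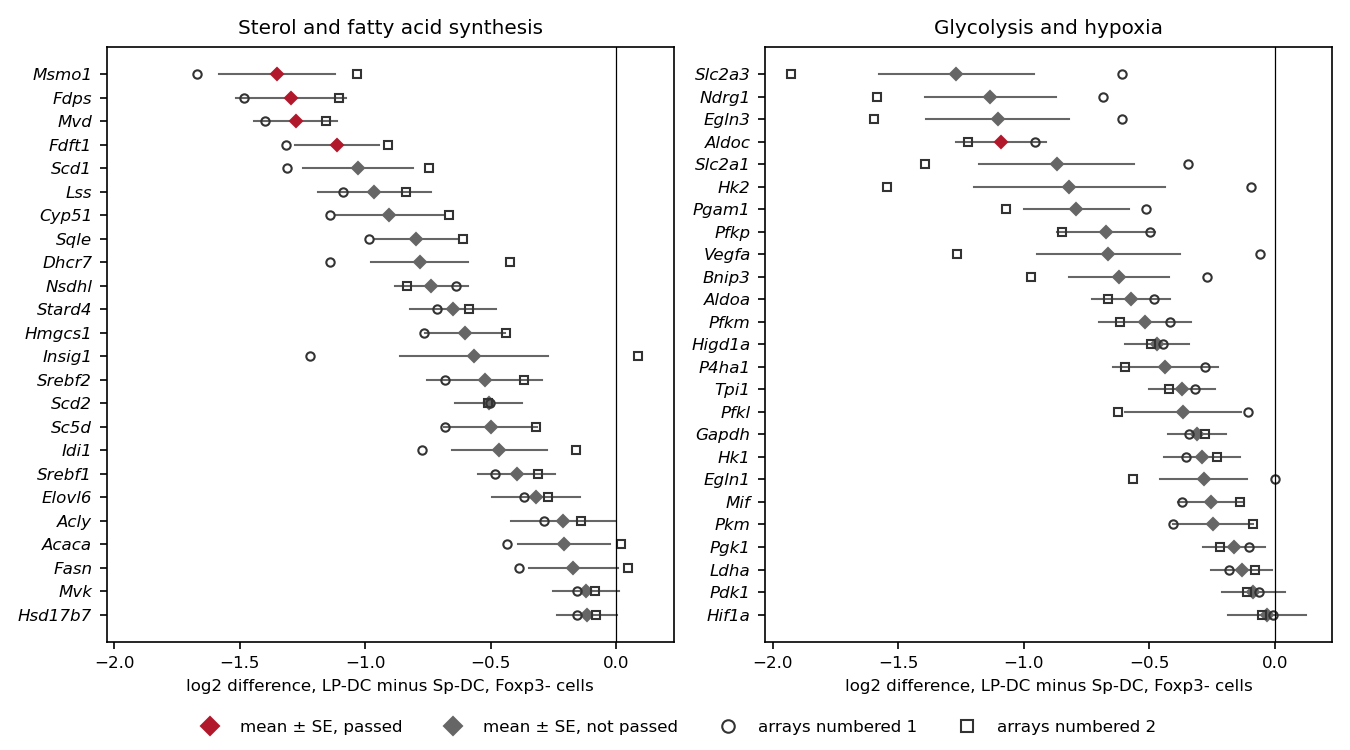
Log2 difference between LP-DC and Sp-DC cultures in Foxp3- cells for the 24 tested sterol and fatty acid synthesis genes and the 25 tested glycolysis and hypoxia genes. Diamonds are the mean of both pairs with the limma standard error (red where the adjusted p is under 0.05), open circles the pair numbered 1 and open squares the pair numbered 2. All means lie below 0, the first pair being the lower for most sterol genes and the second for most glycolysis genes with large differences.

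Gzmb and Gzmc, which encode granzymes, the proteases of cytotoxic granules, fell. Gzmb had levels of 9.99 and 11.06 with LP-DC against 12.02 and 12.80 with Sp-DC, a difference of -1.89 ± 0.20 (3.69-fold lower, adjusted p = 0.0121). Gzmc had levels of 5.33 and 5.81 against 6.77 and 8.44, a difference of -2.04 ± 0.39 (adjusted p = 0.0498), its LP-DC levels lying under the array median. Of 15 tested cytotoxic genes these 2 fell and 13 did not pass, with a list median of -0.24. Gzma, with levels of 10.42 and 9.72 against 9.69 and 10.47, overlapped completely (-0.01 ± 0.74), and Nkg7, a granule membrane protein, differed by -0.93 ± 0.23 (adjusted p = 0.0823). The perforin gene Prf1 lay at 5.48 to 5.64 on the 4 arrays, under the median and not tested. Markers of CD8, NK and gamma delta T cells had 0 of 7 tested members called, and their summed intensity overlapped between the groups, at 9069 and 5960 with LP-DC against 9600 and 7936 with Sp-DC.

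S100 proteins, annexins and galectins, calcium-, phospholipid- and sugar-binding proteins, were below 0 for 18 of 19 tested members (51% of all genes). In both pairs 14 were below 0 (73.7%, against 32.2% of all genes). The list's median was -0.44, and 2 members fell. S100a6 had levels of 10.97 and 10.60 with LP-DC against 12.08 and 11.31 with Sp-DC, a difference of -0.91 ± 0.14 (adjusted p = 0.0348). Anxa2 had levels of 10.10 and 10.85 against 11.25 and 11.82, a difference of -1.06 ± 0.20 (adjusted p = 0.0498), with another probe set near background moving the other way. For both genes the groups were apart, as for 96 of the 102 called genes. S100a4 (-1.60 ± 0.32, adjusted p = 0.0551) and Lgals3, galectin-3 (-0.91 ± 0.26, adjusted p = 0.117), did not pass.

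Several other large falls concern activation and structure. Tubb2b, a beta-tubulin, had the smallest adjusted p of the comparison, with levels of 6.38 and 6.93 with LP-DC against 8.12 and 8.95 with Sp-DC, a difference of -1.88 ± 0.14 (3.68-fold lower, adjusted p = 0.00194). Tnfrsf9, the co-stimulatory receptor 4-1BB, had levels of 8.91 and 9.66 against 10.05 and 11.86 (-1.66 ± 0.25, adjusted p = 0.0348). Cdkn1a, the cell cycle inhibitor p21, had levels of 7.70 and 8.46 against 9.60 and 10.72 (-2.08 ± 0.31, adjusted p = 0.0348). All 3 separate by DC, as do 96 of the 102 called genes. Cdkn1a was the only call among 34 tested cell cycle genes, whose median of 0.06 joins pairs of opposite sign: 4 were below 0 and 2 above 0 in both pairs, and the median was 0.29 without the first LP-DC array, 0.22 without the first Sp-DC array, -0.21 without the second LP-DC array and -0.09 without the second Sp-DC array. Crem, a cAMP-responsive transcription factor, had levels of 9.27 and 9.55 against 10.45 and 12.24 (-1.93 ± 0.35, adjusted p = 0.0489). Crem and Tnfrsf9 each have a dim probe set of opposite sign, beside a brighter one that moved alike.

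Emilin2, an extracellular matrix glycoprotein, had the largest fall of all, with levels of 6.15 and 6.57 with LP-DC against 7.90 and 10.50 with Sp-DC, a difference of -2.84 ± 0.48 (7.18-fold lower, adjusted p = 0.0403). As with the metallothioneins, the second Sp-DC array was far the highest of the 4. Cd93, a C-type lectin-like surface glycoprotein, had levels of 7.96 and 6.70 against 9.74 and 9.39 (-2.23 ± 0.25, adjusted p = 0.0192), and 2 of its 4 other probe sets, both dim, moved the other way. The remaining genes of the 15 largest falls were Basp1, a membrane-bound signalling protein (-2.25 ± 0.35), C1qtnf12, a secreted C1q/TNF-related protein (-2.22 ± 0.26), Selenbp1, which binds selenium (-1.67 ± 0.31), Slamf7, a SLAM family receptor (-1.66 ± 0.30), and Tm6sf1, a transmembrane protein (-1.65 ± 0.29).

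H2-Ab1, the MHC class II beta chain that DC carry in large amounts, fell, with levels of 8.85 and 9.16 with LP-DC against 9.88 and 10.69 with Sp-DC (-1.28 ± 0.21, adjusted p = 0.0403). It was the only call among 13 tested DC markers and among 7 tested MHC class II genes. Its partner H2-Aa lay at 4.07 to 4.25 and Itgax, which encodes CD11c, at 5.24 to 5.69 on the 4 arrays, all under the array medians, and Cd74 and H2-Eb1 differed by -0.07 ± 0.13 and -0.15 ± 0.14. The summed intensity of the 21 measured DC markers was 2388 and 2604 with LP-DC against 3100 and 4335 with Sp-DC, and without H2-Ab1 it was 1926 and 2032 against 2158 and 2681, so the groups stayed apart. Epithelial and stromal markers had 0 of 6 tested members called, with sums of 1288 and 1170 against 1563 and 1987, also apart. B and plasma cell markers (0 of 7 called) had sums of 2880 and 2497 against 2400 and 1968, and erythroid, granulocyte and mast cell markers (0 of 9) 2223 and 2127 against 1645 and 1739, both higher with LP-DC. Monocyte and macrophage markers (0 of 7) overlapped, at 5766 and 7451 against 5796 and 6513. The part of carried-over cells in the results was not tested.

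Among the 25 rises the largest was St8sia6, a sialyltransferase that builds alpha2,8-linked sialic acid on glycoproteins. It had levels of 11.22 and 11.72 with LP-DC against 9.0 and 8.34 with Sp-DC, a difference of 2.80 ± 0.29 (6.96-fold higher, adjusted p = 0.0121). The groups lay over 2 units apart in both pairs. Ncoa7, a nuclear receptor coactivator, had levels of 10.83 and 10.92 against 9.57 and 8.32 (1.93 ± 0.36, adjusted p = 0.0498) and was the only call among 14 tested genes of retinoid metabolism, receptors and response. Egr2, a zinc finger factor induced by the T cell receptor, had levels of 6.39 and 7.54 against 5.15 and 5.63 (1.58 ± 0.26, adjusted p = 0.0403). The Sp-DC levels of Egr2 lay under the array medians, and with log2 of the value plus 32 Egr2 did not pass. Its relatives Egr3 (1.90 ± 0.40, adjusted p = 0.0599) and Egr1 (0.96 ± 0.26, adjusted p = 0.105) did not pass, while Jun, of the AP-1 family, fell, from 8.87 and 8.32 with Sp-DC to 8.02 and 7.20 with LP-DC (-0.99 ± 0.18, adjusted p = 0.044). These were the calls among 36 tested early response and stress genes, whose median was -0.25.

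Cytokine receptors moved in both directions. Il6ra, the IL-6 receptor alpha chain, had levels of 7.82 and 8.26 with LP-DC against 6.91 and 6.25 with Sp-DC (1.46 ± 0.25, adjusted p = 0.0412). Its other probe set, at 6.77 and 6.87 against 6.65 and 6.90, moved by 0.05. With the mean of its probe sets Il6ra differed by 0.76 and did not pass. Il7r, the IL-7 receptor alpha chain kept by naive and memory T cells, had levels of 12.93 and 13.40 against 11.84 and 12.40 (1.04 ± 0.13, 2.06-fold higher, adjusted p = 0.0258). Il27ra, the IL-27 receptor, rose by a smaller amount, 10.13 and 10.23 against 9.52 and 9.61 (0.61 ± 0.12, adjusted p = 0.0498). Il12rb1, a chain of the IL-12 and IL-23 receptors, fell, at 5.95 and 6.5 against 6.86 and 7.38 (-0.89 ± 0.12, adjusted p = 0.0258). With 3 rises and 1 fall among 37 tested, the list of cytokine receptors, STATs and SOCS had a median of -0.20. On the probe sets used, the groups did not overlap in any of these 4 receptors, as for 96 of the 102 called genes.

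Il17a, the cytokine of Th17 cells, rose with LP-DC, with levels of 7.85 and 7.91 against 6.78 and 7.11 with Sp-DC (0.94 ± 0.16, 1.91-fold higher, adjusted p = 0.0412). With Il6ra it made up the 2 calls among 14 tested Th17 genes, whose median was -0.04, and it was the single call among 23 cytokines and chemokines. Ifng, the Th1 cytokine, differed by 0.91 ± 0.39 (adjusted p = 0.285), with levels of 6.63 and 8.08 against 5.66 and 7.24 that overlap. Il4 (-0.18 ± 0.18), Il10 (-0.28 ± 0.29), Tbx21 (-0.56 ± 0.31) and Gata3 (0.19 ± 0.19) did not pass, and Il2 (4.67 to 5.09 on the co-culture arrays) and Il21 (5.20 to 5.64) were below the array medians. Th1 genes gave 1 rise and 1 fall among 17 tested and Th2 genes 0 of 16, with 0.861% of all genes called.

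Other rises were Adh1, an alcohol dehydrogenase that can oxidize retinol, with levels of 8.43 and 8.09 with LP-DC against 7.34 and 7.02 with Sp-DC (1.08 ± 0.17, adjusted p = 0.0403), and Cnga1, a subunit of the rod photoreceptor's cyclic nucleotide-gated channel, with 6.07 and 6.34 against 5.15 and 5.12 (1.07 ± 0.16, adjusted p = 0.0348). For both, the LP-DC arrays lay about 1 unit above the Sp-DC arrays, and for Cnga1 the Sp-DC arrays were under the array median. Btbd11, a BTB-domain protein (1.16 ± 0.19), Slfn8, a Schlafen protein (1.06 ± 0.20), Fam120c (0.97 ± 0.17), Ift80, of intraflagellar transport (0.97 ± 0.18), Shld1, of the shieldin complex (0.88 ± 0.15), Asap1, an Arf GTPase-activating protein (0.86 ± 0.13), and Ank, which exports pyrophosphate and ATP (0.86 ± 0.16), complete the 15 largest rises with groups apart, RIKEN, Gm and clone names passed over. Ms4a4c rose by 1.49 ± 0.28 but its groups overlapped, the second array of each being far higher.

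The gut-homing genes that LP-DC and RA are known for did not pass in the Foxp3- cells (0 of 20 tested homing and adhesion receptors, list median 0.04). With 0.861% of all genes called, 0 of 20 says little about the list. Quantile normalization and the trended prior each called 2 of its members. The fit over all 17 arrays called 3, the fit to the compared groups alone 5, and the other settings 0. Cd44, a hyaluronan receptor of activated cells, had the smallest adjusted p of the list (-0.65 ± 0.13, adjusted p = 0.0541). Itga4, the alpha4 chain, had levels of 9.85 and 10.08 with LP-DC against 9.01 and 8.29 with Sp-DC (1.31 ± 0.26, adjusted p = 0.0544). Itgae, CD103, had the largest difference, with 11.47 and 9.62 against 10.12 and 6.72 (2.13 ± 0.58, adjusted p = 0.105), each pair differing in the same direction while the groups overlap. Ccr9 lay at 5.21 and 4.02 against 4.31 and 4.03, all under the array medians (0.44 ± 0.40, adjusted p = 0.639), and Itgb7 differed by 0.09 ± 0.18. Another Ccr9 probe set, which can cross-hybridize, lay at 6.53 and 5.14 against 4.76 and 4.70, its first LP-DC array above the median. On the single array with RA the first probe set stood at 8.46, the Sp-DC arrays being too dim for the size of that difference to be read (adjusted p = 0.0054). Ccr6 (0.31 ± 0.13), Ccr7 (-0.34 ± 0.32), Cxcr3 (0.37 ± 0.18) and Cxcr6 (-0.75 ± 0.75) did not pass, nor did any of 14 tested chemokine receptors.

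Apart from Ncoa7, no gene of the retinoid list passed with LP-DC. Cyp26b1, which degrades RA, had levels of 6.63 and 6.54 with LP-DC against 6.33 and 6.48 with Sp-DC (0.18 ± 0.14), and Dhrs3, a retinal reductase, 6.26 and 6.09 against 5.82 and 5.42 (0.55 ± 0.21, adjusted p = 0.23). On the RA array the same genes stood 1.69 and 2.47 above Sp-DC (adjusted p = 0.0054 for each). Rarb (0.27 ± 0.20) and the co-repressor Nrip1 (0.39 ± 0.22) did not pass with LP-DC. Between the single RA array and the Sp-DC arrays of Foxp3- cells 31 genes were called (0.262%), 18 higher (0.152%) and 13 lower (0.11%), with the spread of the lone array assumed to be that of the other groups. That count was 8 without the first Sp-DC array and 4 without the second. Without the pairing 1 gene was called (0.00844%), lower with RA. That comparison shares the Sp-DC arrays with the main one, so the differences are only set side by side. Signs were opposite for Gm11346 (0.96 with LP-DC and -1.44 with RA) and for Il6ra (1.46 and -0.70). Macir (-1.35 and -1.52) and the genes that follow had the same sign in both. Tubb2b differed by -1.88 with LP-DC and by -1.62 ± 0.18 with RA (adjusted p = 0.0054), and Asap1 by 0.86 and 1.13 ± 0.16 (adjusted p = 0.0273), each passing in both. St8sia6 differed by 2.80 with LP-DC and by 1.37 ± 0.37 with RA (adjusted p = 0.262), and Mt1 by -2.56 and -1.40 ± 0.42 (adjusted p = 0.382), with RA not passing.

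Compared directly with Sp-DC plus RA, LP-DC gave 62 calls in Foxp3- cells, against the same single RA array (0.523%), 22 higher (0.186%) and 40 lower (0.338%) (0 without the pairing, 736 with an unadjusted p under 0.05). The count was 93 without the first LP-DC array and 15 without the second. In that contrast Gzmb differed by -1.95 (adjusted p = 0.0101), which passed.

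None of 25 tested TGF-beta receptors, Smads and response genes passed (median 0.06), which says little with 0.861% of all genes called. Smad3 stood at -0.07 ± 0.12 and Smad7 at 0.15 ± 0.15. Il2ra, CD25, had levels of 9.07 and 10.64 with LP-DC against 9.60 and 9.99 with Sp-DC (0.06 ± 0.41), with its second probe set at -0.69, and Ctla4 differed by -0.46 ± 0.21. For both genes the groups overlap. The regulatory T cell list gave 3 falls among 30 tested, Gzmb, Tnfrsf9 and S100a6, and its largest difference was that of Nrp1, neuropilin-1, at 10.87 and 10.89 against 9.08 and 6.64 (3.02 ± 0.63, adjusted p = 0.0583), which did not pass. Follicular helper genes lay above 0 for 9 of 10 tested (49% of all genes), with a median of 0.46. These 9 were above 0 in both pairs (90%, against 26.9% of all genes). Il6ra was the call and Slamf6 (1.83 ± 0.37, adjusted p = 0.0551) the largest difference. Il7r was the only call among 22 tested naive and memory genes and among 11 genes known to be lower in Foxp3-expressing cells. Housekeeping genes had 0 of 13 calls with a median of 0.01, a list too short for 0 calls to say much.

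The same contrast in the Foxp3+ cells, which have arrays of their own and culture labels like those of the Foxp3- cells, called 215 genes (1.81%), 139 higher (1.17%) and 76 lower (0.642%) (0 without the pairing, 947 with an unadjusted p under 0.05). Across the 11846 genes the LP-DC differences in Foxp3- and Foxp3+ cells had a correlation of 0.71, a description in which genes are not independent replicates. Same-numbered arrays of the fractions deviated together, with a correlation of 0.75 for Sp-DC and 0.70 for LP-DC. The differences in the fractions are therefore not independent, which bears on the 0.71 and on the shared signs. Of the 102 genes called in Foxp3- cells, 95 had the same sign in Foxp3+ cells, and the share over all genes was not counted. There, 9 rises and 23 falls passed too, among them St8sia6 (2.09), Il7r (1.03), Egr2 (1.84), Gzmb (-1.84), Mvd (-1.01) and Emilin2 (-2.66). Emilin2 was high on the second Sp-DC arrays of both fractions, so its differences in the fractions share that feature. The median of the 77 falls was -1.07 in the Foxp3- cells that chose them and -0.68 in the Foxp3+ cells, and that of the 25 rises 0.96 and 0.53.

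**Figure D4:**
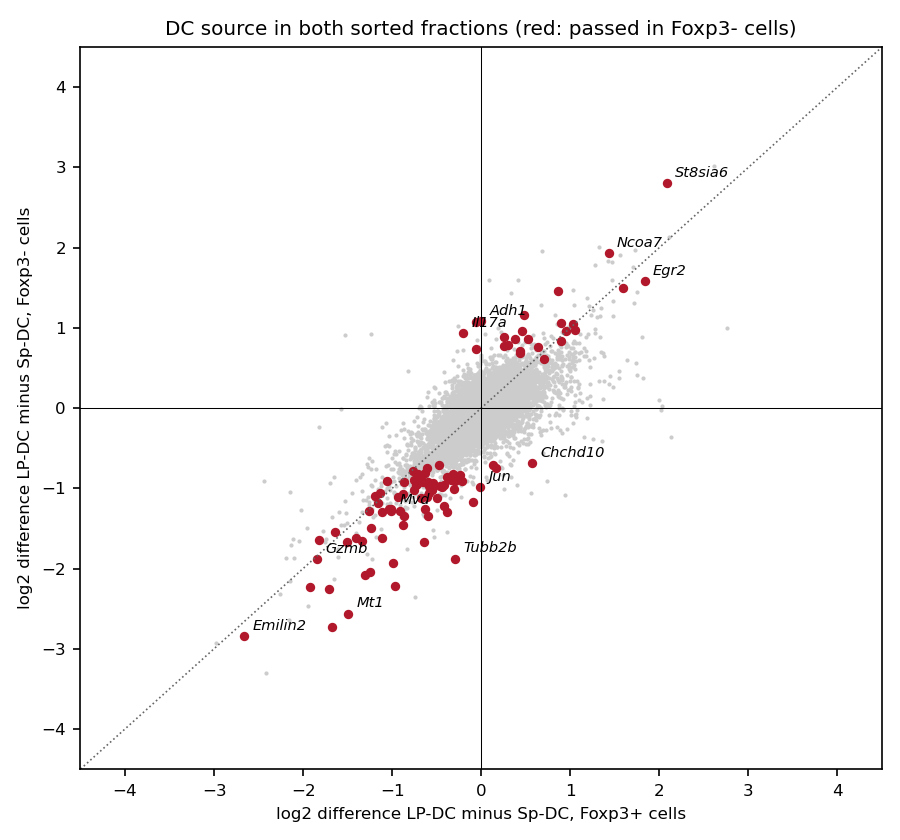
Log2 difference between LP-DC and Sp-DC cultures for 11846 genes in the Foxp3+ cells (x axis) and the Foxp3- cells (y axis), with the 102 genes that passed in Foxp3- cells in red and the dotted line marking equal differences. Most red points have the same sign on both axes, while Il17a and Adh1 lie near 0 in the Foxp3+ cells.

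No gene passed a test of whether the DC difference itself differed between Foxp3- and Foxp3+ cells (limma, 0 called, 434 with an unadjusted p under 0.05, and 108 without the pairing). Of the 102 genes, 31 had an unadjusted p under 0.05 in that test. The 102 were chosen by their difference in Foxp3- cells, which is a term of this test. That choice alone raises their share, so the 31 say nothing about the fractions. Tubb2b came nearest among them, with -1.88 in Foxp3- and -0.29 in Foxp3+ cells, a difference of -1.59 ± 0.20 (adjusted p = 0.0915). The smallest adjusted p of all, 0.0911, belonged to Cd83, which differed by 0.10 in Foxp3- and 2.00 in Foxp3+ cells. Il17a, at 0.94 and -0.20, gave a difference of 1.14 ± 0.23 (adjusted p = 0.521). Adh1 (1.08 and -0.00) and Cnga1 (1.07 and -0.06) showed the same order, each with an adjusted p of 0.521, and Chchd10, a mitochondrial protein named for this difference, was at -0.68 and 0.57 (adjusted p = 0.213).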

How the data were processed

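Per the labels, the authors deposited RMA values (version not given in the sources used here) as linear intensities, and log2 was taken without a pseudocount or further normalization. Whether all arrays were normalized together is not given in the sources used here. Of 45101 probe sets, 34958 have 1 gene symbol in the platform table, 932 several and 9211 none, and only the first were used. Each of 18194 genes is represented by its probe set of highest mean over all arrays, cross-hybridizing _x_at sets being passed over. Genes above the array median (50th percentile) on at least 2 of 11 co-culture arrays were tested (11846).

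One limma 3.58.1 model (R 4.3.3) of 6 groups with the array number as a block gave all contrasts, with Benjamini-Hochberg adjustment over all genes and a threshold of 0.05 (4 residual and 5.56 prior degrees of freedom, against 5 and 3.19 without the block). The pairing by number is part of the definition of the comparison. The residuals of same-numbered arrays correlated at 0.45 to 0.75 in 10 group pairs, which describes the arrays and did not decide the pairing. The script was tested on simulated data. No co-culture array was left out. Foxp3- cells with RA have 1 array here, numbered 2. The number of arrays limits the precision.

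The members, the 33 gene lists (740 of 806 entries measured), the tests and the named genes were chosen with earlier results of these data known. Named genes comprise the top 15 in each direction, by size, whose groups were apart (RIKEN, Gm and clone names passed over), up to 4 called members per list, 28 genes always given, and the largest passing differences between fractions, of which there were 0. Some of the genes always given are not reported here. Other genes are said to be named after their values were seen. Alternatives were the fit without the block, quantile normalization, median-centring, no filter, a 60th-percentile filter, adding 32 before the log2, averaging a gene's probe sets, a trended or a robust prior, only the groups compared, all 17 arrays, and each array left out. Both Sp-DC arrays numbered 2 were left out as an alternative chosen after seeing the data.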

Additional observations from a re-analysis of the deposited data

How the results depend on the processing

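The 102 calls for LP-DC over Sp-DC in Foxp3- cells became 0 without the replicate block (794 with an unadjusted p under 0.05), 257 with quantile normalization, 49 with log2 of the value plus 32, 15 with the mean of all probe sets, 187 with a trended prior, 824 in a fit to the groups compared alone, 315 over all 17 arrays and 0 without both Sp-DC arrays numbered 2 (1109 with an unadjusted p under 0.05). Leaving out 1 array gave 0 to 85. The sign of the 102 did not turn in the settings in which they were tested. Several of these settings leave the log2 difference as it is and the others reuse the same arrays, so this says little of stability. Under quantile normalization 35% of calls were rises, against 24.5%. In the same order, the 215 calls in Foxp3+ cells became 0, 418, 142, 36, 285, 0, 424 and 0, and 129 with median-centring, with 2 to 451 when 1 array was left out. The test of a difference between the fractions gave 1 call over all 17 arrays and 0 to 3 with 1 array left out. RA over Sp-DC (31) gave 1 call without the block, 51 over all 17 arrays, 15 without both arrays numbered 2, and 4 to 8 without 1 array. LP-DC over Sp-DC plus RA (62) gave 0 without the block, 38 with the mean of all probe sets, 120 over all 17 arrays, and 15 to 93 without 1 array. The fit to the compared groups alone could not be made for the contrasts with 1 RA array. The cause was not tested.

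None of the 41 named genes that passed changed sign. Among genes that did not pass, leaving out 1 array gave ranges that include a changed sign for Itgb7 (-0.16 to 0.33), Ccr7 (-0.88 to 0.21), Il4 (-0.48 to 0.12), Il10 (-0.76 to 0.20), Smad3 (-0.14 to 0.0097) and Il2ra (-0.73 to 0.84). Without both Sp-DC arrays numbered 2 Itgb7 was -0.21, Il10 0.24, Gata3 -0.060 and Il2ra -0.085, and with the mean of all probe sets Il2ra was -0.32. Of the 41, 41 still passed with quantile normalization, 31 with median-centring, 24 with log2 of the value plus 32, 9 with the mean of all probe sets and 0 without the block.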

Other observations

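Of 36 tested interferon-response genes 0 were called in Foxp3- cells (limma, 14 with an unadjusted p under 0.05), and the 4 largest differences had both signs. Rtp4, an interferon-induced protein, had levels of 8.62 and 10.25 with LP-DC against 8.06 and 7.18 with Sp-DC (1.82 ± 0.60, adjusted p = 0.161), and Ifit3 had 6.51 and 7.94 against 5.97 and 5.92 (1.28 ± 0.37, adjusted p = 0.116). Both stand highest on the second LP-DC array. Ifitm1 and Ifitm2 encode membrane proteins that hinder virus entry and had differences below 0, with Ifitm1 at 10.19 and 10.68 against 11.69 and 11.64 (-1.23 ± 0.23, adjusted p = 0.0514) and Ifitm2 at 8.73 and 9.79 against 10.71 and 10.89 (-1.54 ± 0.31, adjusted p = 0.0541). The list's median was 0.10.

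Amino acid response genes, driven by ATF4 when amino acids run short, were below 0 for 18 of 21 tested (51% of all genes). In both pairs 12 were below 0 (57.1%, against 32.2% of all genes). The list had a median of -0.14 and 0 calls. Asns, asparagine synthetase, had levels of 6.88 and 6.42 with LP-DC against 7.24 and 8.0 with Sp-DC (-0.97 ± 0.26, adjusted p = 0.0992), and Atf4 itself had 9.20 and 9.43 against 9.69 and 10.42 (-0.74 ± 0.18, adjusted p = 0.081). Neither passed, and both have their highest level on the second Sp-DC array.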
